A study of Rattus norvegicus with 12 samples.

Results

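The change of the osteoarthritis (OA) effect between 2 and 8 weeks after surgery was examined in rat knee articular cartilage. It is the OA minus sham difference at 8 weeks minus the OA minus sham difference at 2 weeks, called the interaction here, and it draws on all 12 of the 12 arrays of the series. The arrays fell into 4 groups of 3: knees operated to induce OA and sham-operated knees, each taken 2 weeks or 8 weeks after the operation, by the sample titles. All samples were from Rattus norvegicus, and the sham groups had an operation too. The labels point to an earlier report for the surgery and give no strain, sex or age, nor whether an array holds 1 animal or a pool, so p-values measure only the spread between these samples, which may be technical. Values are log2 expression values on 1-colour arrays, so a difference of 1 is a doubling. Control probe sets were dropped, and the 15934 of 31099 probe sets above log2 4 in at least 3 of the 12 arrays were tested; 9247 genes were represented, each by its brightest probe set with a single gene symbol. An interaction above 0 means that OA stood higher against sham at 8 weeks than at 2 weeks.

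Articular cartilage is a tissue without vessels whose chondrocytes hold a matrix of type II collagen and aggrecan. In OA, proteases of the matrix metalloproteinase and ADAMTS families degrade that matrix, and chondrocytes take up growth factor, stress and hypertrophic programmes. Below the calcified cartilage lies bone with osteoclasts, osteoblasts, marrow and vessels, and around the joint lie synovium and muscle, so cartilage samples can hold RNA of these tissues too.

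The arrays carried cartilage RNA by their markers. The mean level of the 8 measured cartilage markers of 10 lay between 13.90 and 14.47 in every array, and their median interaction was -0.02. Sox9 and Matn3 had no value here. Between 48.3% and 49.9% of probe sets exceeded log2 4 in each array. The number 1 arrays of both 8-week groups stood furthest from their groups, each with a mean correlation of 0.973 with its own group against 0.980 to 0.988 elsewhere. The skeletal muscle markers had a mean log2 level of 14.46 and 10.06 in these arrays, each the highest of its group, and ranged from 4.15 to 6.92 in the 6 arrays at 2 weeks. No statement about cells below separates fewer cells of a type from less RNA per cell, which bulk arrays cannot tell apart.

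The OA minus sham difference was called as changed between 2 and 8 weeks for a small set of probe sets. Of the 15934 probe sets, 22 (0.138%) passed the limma interaction test at a Benjamini-Hochberg adjusted p below 0.05, 10 of them higher (0.0628%) and 12 lower (0.0753%). They stood for 15 named genes, 6 higher (0.0649% of genes) and 9 lower (0.0973% of genes), and the other 7 probe sets carried no single gene symbol. The OA effect rose between the times for Tgfa, Itga8, Fez1, Lhfpl3, Mmp3 and Stard13. It fell for Enc1, Cd68, Foxs1, Ccdc88c, Ctsz, Mfap2, Cdca7, Gfap and Srpx. With OA and sham arrays of the same number and time paired, 67 probe sets were called, 16 of the 22 among them.

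In all 22 the OA minus sham difference was larger in size at 8 weeks than at 2 weeks, and in 11 of the 22 it was opposite in sign at the 2 times. The OA and sham arrays did not overlap at 8 weeks in any of the 22, as in 3998 of all probe sets tested (25.1%). They did not overlap at 2 weeks in 5 of the 22, as in 857 of all (5.38%). The calls were chosen by a contrast that holds both differences, so nothing is read from these counts. All 22 were also called for OA minus sham at 8 weeks, where 552 probe sets (3.46%) were called. None was called for OA minus sham at 2 weeks, where limma called 0 of the 15934 probe sets (0%), 269 had an unadjusted p below 0.05, and the smallest adjusted p was 0.868. Within OA 21 of the 22 changed between 2 and 8 weeks (background 5430 probe sets, 34.1%), and within sham 6 of the 22 did (background 2979 probe sets, 18.7%). The change with time was larger in size in OA than in sham in 21 of the 22, with Mmp3 the exception. These component differences share their arrays with the interaction and describe it.

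The spread of OA minus sham over all probe sets was an SD of 0.24 at 2 weeks and 0.59 at 8 weeks. Both differences correlated at 0.130 across probe sets, which are not independent replicates. The noise within groups was nearly alike, with a median SD of 0.191 at 2 weeks and 0.202 at 8 weeks, and it was larger at 8 weeks in 52.5% of all probe sets and in 17 of the 22 called. The smallest interaction called was 1.12 in size, against a median standard error (SE) of 0.236; no smaller change was called with 3 arrays a group. Without an adjustment 1760 probe sets had a p below 0.05, 901 higher and 859 lower.

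**Figure D1:**
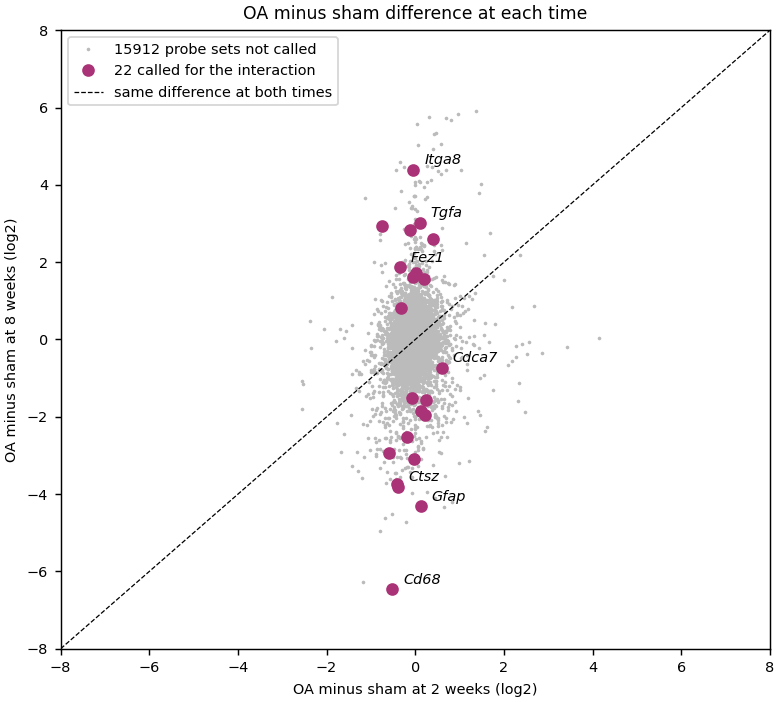
Each point is 1 probe set, with its OA minus sham difference in log2 at 2 weeks on the horizontal axis and at 8 weeks on the vertical axis; the 22 called for the interaction are large and coloured, and the dashed line marks equal differences. The cloud is taller than it is wide (SD 0.59 against 0.24), and the called probe sets, from Cd68 at the bottom to Itga8 at the top, each have a larger difference in size at 8 weeks than at 2 weeks, where the largest is 0.75 in size.

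The count of calls moved with single arrays. Leaving out 1 array at a time gave between 7 and 80 calls. It was 14, 8 and 8 without OA 2 weeks replicates 1, 2 and 3, and 8, 7 and 9 without sham 2 weeks replicates 1, 2 and 3. Without OA 8 weeks replicates 1, 2 and 3 it was 52, 19 and 40, and without sham 8 weeks replicates 1, 2 and 3 it was 80, 7 and 10. With both number 1 arrays at 8 weeks left out, 130 probe sets were called, 20 of the 22 among them. Tgfa, Itga8, Fez1, Enc1 and Cd68 were called in all 24 alternatives that were run, and the interaction of none of the 15 genes changed sign in any of them.

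Tgfa, a ligand of the epidermal growth factor (EGF) receptor, had the smallest p of all. At 2 weeks its log2 values were 10.73, 10.93 and 11.19 in OA against 10.82, 10.82 and 10.91 in sham. At 8 weeks they were 12.21, 12.45 and 12.75 in OA against 9.43, 9.47 and 9.44 in sham. Thus OA and sham overlapped at 2 weeks and lay apart at 8 weeks, with OA higher than at 2 weeks and sham lower. The interaction was 2.92 ± 0.21 (SE, n = 3 arrays a group; limma adjusted p = 0.00102), and OA was 8.13-fold above sham at 8 weeks. A dimmer probe set of Tgfa, with group means from 4.19 to 5.63, gave an interaction of -0.70 ± 0.75 (adjusted p = 0.758). The probe sets of this gene thus disagree, though the dimmer one lies near the filter level of log2 4.

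Most measured genes of the EGF system had an interaction above 0, with Tgfa itself included in these counts. Of 15 listed ligands, receptors and regulators 7 were measured, 6 with an interaction above 0. The list's median was 0.38 against -0.03 over all 9247 genes, 45.7% of which lay above 0. Tgfa passed the test. It was among the 3 of the 7 with an unadjusted p below 0.05 on the higher side, where 379 of all genes did (4.1%). Adam17 and Egf were the others. Adam17, the sheddase that releases TGF-alpha from the membrane, had an interaction of 1.04 ± 0.20 (adjusted p = 0.0998). Its 8-week values were 11.78, 12.06 and 12.25 in OA against 11.00, 10.96 and 11.21 in sham, after 11.75 to 12.18 in the 6 arrays at 2 weeks; the 8-week sham arrays were the low ones. Egf, another ligand, had 0.78 ± 0.30 (adjusted p = 0.395).

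Mmp3, stromelysin, a metalloproteinase that cleaves proteoglycans and activates other proteases, differed through its sham arrays. Its OA values were 14.83, 14.95 and 14.95 at 2 weeks and 14.69, 14.88 and 15.20 at 8 weeks. Its sham values were 14.91, 14.69 and 14.59 at 2 weeks and 13.48, 13.18 and 13.40 at 8 weeks. So Mmp3 stayed near its level in OA, with a change of 0.01 with time, and fell by 1.37 in sham. The interaction was 1.39 ± 0.20 (adjusted p = 0.0415), and the adjusted p was 0.0692 with the replicate number of each time as a block.

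The promoters of 3 genes are shown because they belong to the called EGF ligand, protease and macrophage gene: the 250 bases before the annotated start in RefSeq, build GRCr8, in the sense of the gene, with TGANTCA, the AP-1 motif bound by FOS and JUN proteins, in capitals.
Tgfa, chr4:120175469-120175718, plus strand: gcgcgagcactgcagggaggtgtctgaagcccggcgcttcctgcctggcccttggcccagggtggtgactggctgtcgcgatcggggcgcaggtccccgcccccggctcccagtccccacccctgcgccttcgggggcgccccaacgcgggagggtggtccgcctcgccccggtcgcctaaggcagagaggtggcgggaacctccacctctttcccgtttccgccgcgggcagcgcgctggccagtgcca
Mmp3, chr8:12925031-12925280, plus strand: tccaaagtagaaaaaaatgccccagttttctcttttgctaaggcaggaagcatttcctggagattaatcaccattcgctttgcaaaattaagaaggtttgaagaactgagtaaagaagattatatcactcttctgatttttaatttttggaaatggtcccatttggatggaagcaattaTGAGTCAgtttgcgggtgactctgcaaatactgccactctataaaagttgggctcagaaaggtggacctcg
Cd68, chr10:54882442-54882691, minus strand: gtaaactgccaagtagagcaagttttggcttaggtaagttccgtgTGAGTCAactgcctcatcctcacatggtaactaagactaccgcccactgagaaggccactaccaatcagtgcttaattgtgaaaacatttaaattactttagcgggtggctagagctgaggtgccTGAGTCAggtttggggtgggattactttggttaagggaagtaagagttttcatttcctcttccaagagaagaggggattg
The motif, which reads the same on both strands apart from its middle base, was at -71 from the start in Mmp3, at -205 and -80 in Cd68, and not in this window of Tgfa. It occurred in 2122 of 33469 promoters of this length (6.34%) and in 2 of the 13 called genes that had an entry. A match describes the letters only. The interaction was above 0 for Mmp3 and below 0 for Cd68.

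Itga8, the integrin alpha 8 subunit, which pairs with beta 1 to bind matrix proteins such as nephronectin, had the largest interaction above 0 among the called genes. Its values at 2 weeks were 3.31, 3.35 and 3.17 in OA against 3.42, 3.34 and 3.21 in sham, all below the log2 4 filter level. At 8 weeks they were 9.37, 9.05 and 7.95 in OA against 4.30, 4.58 and 4.31 in sham. The gene was thus near the floor of the scale in every 2-week array and bright only in OA at 8 weeks among these 12 arrays. The interaction was 4.44 ± 0.41 (adjusted p = 0.00367). Of 19 listed integrins 12 were measured, 6 above and 6 below 0 with a median of -0.05, and Itga8 was the single one called.

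Fez1, an adaptor of kinesin transport, rose in both groups with time and more in OA. Its values were 6.29, 6.20 and 5.95 in OA against 6.50, 6.25 and 6.73 in sham at 2 weeks. At 8 weeks they were 8.75, 9.19 and 9.05 in OA against 7.11, 7.11 and 7.14 in sham, an interaction of 2.23 ± 0.21 (adjusted p = 0.00367). Lhfpl3, a tetraspan membrane protein of the LHFP family, had OA values of 7.93, 7.37 and 7.62 and sham values of 7.33, 7.18 and 7.22 at 2 weeks. These did not overlap, but the 2-week difference of 0.39 was not called (limma unadjusted p = 0.0730). At 8 weeks its OA values were 10.32, 10.05 and 9.94 and its sham values 7.90, 7.19 and 7.41, and the interaction was 2.21 ± 0.28 (adjusted p = 0.0250). OA arrays at 8 weeks were the high ones for both genes.

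Stard13, a protein with a lipid-binding START domain, crossed over. Its OA values at 2 weeks, 9.91, 9.69 and 9.78, lay below the sham values of 10.21, 9.92 and 10.19. At 8 weeks the OA values of 10.74, 10.96 and 10.99 lay above the sham values of 10.07, 10.22 and 9.96. Each order held for all 3 arrays of a group, and the interaction was 1.12 ± 0.17 (adjusted p = 0.0419).

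**Figure D2:**
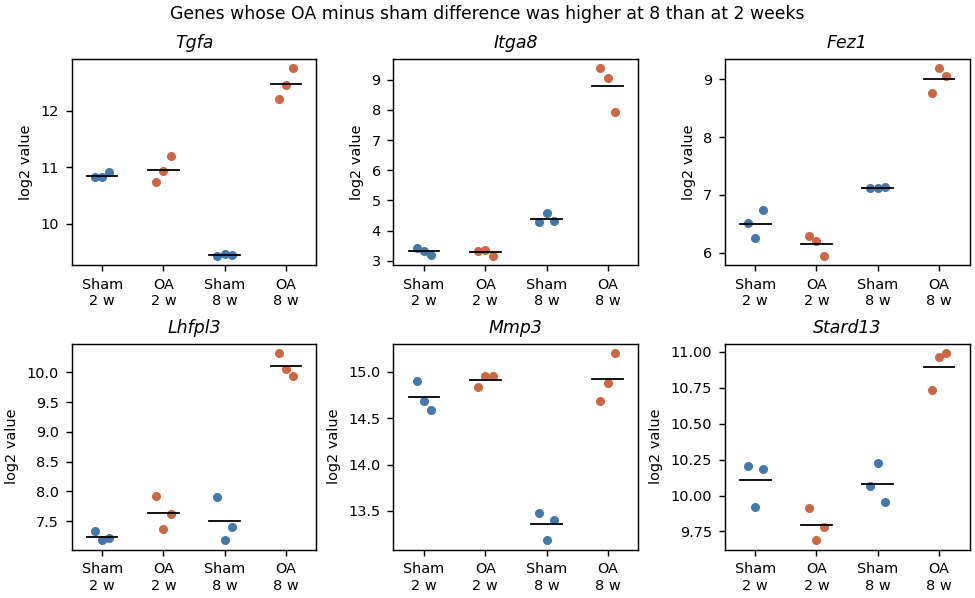
Log2 values of the 6 genes called higher, one panel a gene, with a point for each array, blue for sham and orange for OA, and a bar for the mean of 3 arrays. In Tgfa, Itga8, Fez1, Lhfpl3 and Stard13 the OA arrays at 8 weeks are the highest of the 12, whereas Mmp3 differs at 8 weeks through sham values of 13.18 to 13.48.

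Cd68, a lysosomal glycoprotein of macrophages and osteoclasts, had the largest interaction below 0 among the called genes. Its values at 2 weeks were 9.27, 8.83 and 8.57 in OA against 9.24, 9.69 and 9.30 in sham. At 8 weeks they were 2.26, 2.39 and 2.98 in OA against 7.86, 9.21 and 9.95 in sham. Thus the gene stayed bright in sham and was under the filter level in every OA array at 8 weeks, where its values lie at the floor of the scale and have no reliable order. The interaction was -5.94 ± 0.63 (adjusted p = 0.00787). Ctsz, a lysosomal cathepsin, had 9.46, 9.57 and 9.59 in OA and 9.77, 9.76 and 10.25 in sham at 2 weeks. At 8 weeks it had 5.18, 5.05 and 6.17 in OA and 8.72, 9.18 and 9.92 in sham, an interaction of -3.42 ± 0.48 (adjusted p = 0.0368). For both lysosomal genes the 3 OA arrays at 8 weeks were the low ones, and for Ctsz the OA arrays lay below sham at 2 weeks too.

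Gfap, an intermediate filament protein best known from glia, was even across 9 arrays. Its values were 10.47, 10.01 and 10.16 in OA against 10.06, 10.01 and 10.22 in sham at 2 weeks, and 10.17, 9.93 and 10.10 in sham at 8 weeks. In OA at 8 weeks they were 4.52, 5.76 and 6.97, the most spread and the lowest. The interaction was -4.43 ± 0.66 (adjusted p = 0.0419, and 0.0613 with the replicate block within each time).

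Enc1, a kelch-family protein that binds actin, fell in OA and changed little in sham. Its values were 10.25, 9.82 and 9.97 in OA against 9.76, 9.83 and 9.81 in sham at 2 weeks. At 8 weeks they were 7.92, 8.00 and 8.36 in OA against 10.06, 9.87 and 10.21 in sham, an interaction of -2.17 ± 0.21 (adjusted p = 0.00367). Ccdc88c, which binds the Wnt mediator dishevelled, had 9.20, 9.35 and 9.25 in OA and 9.06, 8.98 and 9.37 in sham at 2 weeks. It had 7.17, 8.03 and 7.55 in OA and 9.52, 9.40 and 9.36 in sham at 8 weeks, an interaction of -1.97 ± 0.27 (adjusted p = 0.0311, and 0.0613 with the block). The sham arrays of Enc1 at 8 weeks all lay above those at 2 weeks, by 0.25 in the mean (limma adjusted p = 0.341). For Ccdc88c the sham arrays of both times overlapped.

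Foxs1, a forkhead transcription factor, was dim throughout. Its 9 arrays outside the 8-week OA group lay between 4.67 and 5.11, and the 8-week OA values were 3.59, 3.34 and 3.10, under the filter level. The interaction was -1.45 ± 0.19 (adjusted p = 0.0288, and 0.0713 with the block).

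A pair of matrix-associated genes fell as well. Mfap2, a glycoprotein of elastic microfibrils, had 9.37, 9.32 and 9.79 in OA and 9.80, 9.32 and 9.91 in sham at 2 weeks. At 8 weeks it had 6.05, 6.30 and 6.86 in OA and 8.70, 9.13 and 8.98 in sham, an interaction of -2.35 ± 0.33 (adjusted p = 0.0368). Srpx, a sushi-repeat protein, had values from 11.62 to 12.33 in the 9 other arrays and 10.10, 10.45 and 10.70 in OA at 8 weeks, an interaction of -1.82 ± 0.27 (adjusted p = 0.0444). Neither gene overlapped between OA and sham at 8 weeks.

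Cdca7, a gene associated with cell division, crossed in the other direction from Stard13. At 2 weeks its OA values of 8.61, 9.00 and 9.14 lay above the sham values of 8.17, 8.40 and 8.37. At 8 weeks its OA values of 7.33, 7.28 and 7.56 lay below the sham values of 8.11, 8.13 and 8.12, and the interaction was -1.33 ± 0.20 (adjusted p = 0.0419). Over all 9247 genes, 44 (0.476%) had OA and sham arrays apart at both times in opposite order, 2 of them called. Also among the 44, but not called and given as values only, were the replication helicase subunits Mcm6 and Mcm2, with interactions of -1.12 ± 0.30 (adjusted p = 0.216) and -0.97 ± 0.29 (adjusted p = 0.270). The chemokine receptor Cxcr4 was in the same order, with -2.81 ± 0.66 (adjusted p = 0.162); its OA values were 10.19, 10.47 and 9.98 at 2 weeks and 7.67, 7.40 and 6.50 at 8 weeks, and its sham values 9.86, 9.96 and 8.99 at 2 weeks and 8.31, 9.82 and 10.04 at 8 weeks. All 3 lay above sham at 2 weeks and below it at 8 weeks.

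**Figure D3:**
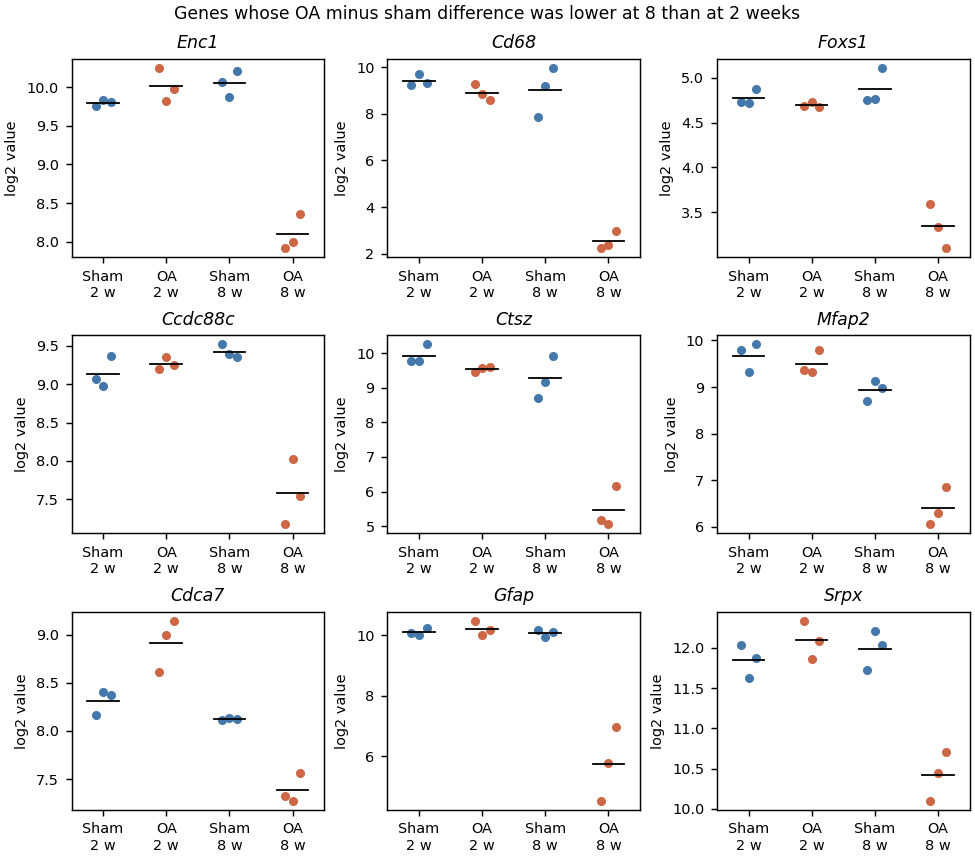
Log2 values of the 9 genes called lower, one panel a gene, with a point for each array, blue for sham and orange for OA, and a bar for the mean of 3 arrays; vertical axes differ and do not start at 0. In each panel the 3 OA arrays at 8 weeks are the lowest of the 12, down to 2.26 for Cd68, and in Cdca7 and Ctsz the OA arrays also lie apart from sham at 2 weeks, above it in Cdca7 and below it in Ctsz.

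The 24 measured cell cycle genes of 30 all had an interaction below 0, and 0 passed the limma test. Their median interaction was -1.37 against -0.03 over all genes, and 16 of 24 had an unadjusted p below 0.05 on the lower side, where 627 of 9247 genes did (6.78%). The median OA minus sham difference was 0.44 at 2 weeks and -0.96 at 8 weeks. With time the median change was -1.64 in OA and 0.03 in sham. By array the mean level of the list was 8.97, 9.03 and 8.63 in OA against 8.74, 8.70 and 7.81 in sham at 2 weeks. At 8 weeks it was 6.76, 7.15 and 7.57 in OA against 7.47, 8.47 and 8.64 in sham. The OA arrays were the lower ones at 8 weeks with an overlap at sham replicate 1, and at 2 weeks sham replicate 3 was the low one. Melk, a mitotic kinase, had -2.83 ± 0.81 (adjusted p = 0.256), and Top2a, the topoisomerase of dividing cells, -2.14 ± 0.64 (adjusted p = 0.275). The list's median stayed between -1.70 and -1.01 over the 24 alternatives.

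Immediate early genes, transcription factors induced within minutes of a stimulus, pointed the other way. Of 24 listed 18 were measured, 16 with an interaction above 0 (45.7% over all genes), and the median was 0.53. None of the 18 passed, and 8 had an unadjusted p below 0.05 on the higher side, where 379 of 9247 genes did (4.1%). The median OA minus sham difference was -0.35 at 2 weeks and 0.18 at 8 weeks, so that both times contributed. Nr4a2, a nuclear orphan receptor, had 4.37 to 5.45 in the 6 arrays at 2 weeks, and 8.79, 9.56 and 8.07 in OA and 6.44, 6.49 and 6.06 in sham at 8 weeks. It was higher in every array at 8 weeks than at 2 weeks, most in OA, with an interaction of 2.71 ± 0.51 (adjusted p = 0.0893). Fos, a component of AP-1, had 13.88, 13.61 and 12.91 in OA and 14.14, 14.16 and 14.55 in sham at 2 weeks, and overlapped between OA and sham at 8 weeks. Its interaction of 1.09 ± 0.36 (adjusted p = 0.334) thus came mainly from the lower OA arrays at 2 weeks, a difference of -0.82.

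The genes of hypoxia and glycolysis had 9 of 29 measured members (32 listed) with an unadjusted p below 0.05 on the higher side, 0 on the lower side and 0 called. Over all genes 4.1% were higher and 6.78% lower at that p. The list's median was 0.15, with 20 of 29 above 0. Egln3, a prolyl hydroxylase induced by hypoxia, had 12.32, 12.53 and 12.76 in OA and 10.62, 11.57 and 11.03 in sham at 8 weeks, against 10.59 to 11.40 in the arrays at 2 weeks. Its interaction was 1.72 ± 0.36 (adjusted p = 0.119), and the 8-week OA arrays were the high ones. Vegfa, the angiogenic growth factor, had 0.72 ± 0.18 (adjusted p = 0.182). Oxidative phosphorylation had 0 of 26 measured genes of 32 below an unadjusted p of 0.05, 0 called, and a median of 0.03 that changed sign in 9 of the 24 alternatives.

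The genes of type II collagen and aggrecan had small interactions, and no measured cartilage matrix gene was called. Of 32 listed cartilage matrix genes 28 were measured, 0 passed, and the median was -0.14, with 18 of 28 below 0. Unadjusted p values below 0.05 were found for 1 on the higher and 4 on the lower side, against 4.1% and 6.78% of all genes. Col2a1, type II collagen, had an interaction of -0.24 ± 0.11 (adjusted p = 0.476), and Acan, aggrecan, of 0.15 ± 0.15 (adjusted p = 0.739). The chains of type IX collagen, which decorates type II fibrils, all lay below 0: Col9a3 had -0.57 ± 0.14 (adjusted p = 0.191), Col9a1 -0.50 ± 0.14 (adjusted p = 0.237) and Col9a2 -0.96 ± 0.28 (adjusted p = 0.270). Col9a3 had 15.01, 14.94 and 14.95 in sham and 14.36, 14.30 and 14.45 in OA at 8 weeks, which do not overlap, and 15.08 to 15.37 in the arrays at 2 weeks.

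The fibrous and repair matrix list had 41 of 45 genes measured, with 1 called lower, Mfap2. Its median was -0.38, 33 of 41 lay below 0, and 2 higher and 7 lower had an unadjusted p below 0.05. Over all genes 45.7% lay above 0, and 4.1% were higher and 6.78% lower at that p. In the hypertrophy and mineralization list 16 of 21 were measured, 0 were called, 1 higher and 5 lower had an unadjusted p below 0.05, and the median was -0.24. Dmp1 counts among these lower genes and also among the osteoblast and osteocyte markers below. Mmp13, the collagenase of hypertrophic chondrocytes, had 15.17, 15.00 and 14.47 in OA and 14.94, 14.80 and 15.01 in sham at 2 weeks. It had 10.66, 12.56 and 12.58 in OA and 13.92, 14.80 and 14.59 in sham at 8 weeks. All 3 OA arrays at 8 weeks were low, replicate 1 the lowest, and the interaction was -2.47 ± 0.66 (adjusted p = 0.216).

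The matrix proteases did not move as one. Of 41 listed 28 were measured, 9 above and 19 below 0 with a median of -0.29. Mmp3 was called higher, 0 were called lower, and 2 higher and 5 lower had an unadjusted p below 0.05. Over all genes 4.1% were higher and 6.78% lower at that p. Adamts9, a metalloproteinase of the family that cleaves aggrecan and versican, had an interaction of -3.22 ± 0.61 (adjusted p = 0.0913). Its values were 7.72, 6.76 and 6.22 in OA against 6.12, 6.22 and 6.21 in sham at 2 weeks, and 2.43, 2.55 and 2.48 in OA and 4.18, 4.89 and 5.92 in sham at 8 weeks, where the OA arrays were under the filter level. Adamts5, a main aggrecanase, had 0.09 ± 0.71 (adjusted p = 0.975; -0.28 for a dimmer probe set), an SE under which a change of that size was not detectable. The protease inhibitors had 12 of 16 measured, 0 called, and a median of 0.14 that changed sign in 2 alternatives.

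The other signalling lists held no called gene. For the counts below, 4.1% of all genes were higher and 6.78% lower at an unadjusted p below 0.05. Inflammatory cytokines and NF-kB targets had 14 of 23 measured, 11 above 0, 2 with an unadjusted p below 0.05 on the higher side, 0 called, and a median of 0.32. The cytokines Il1a, Il1b, Il6, Tnf, Lif, Il11 and Il33 were not above log2 4 in at least 3 arrays, so these counts leave them out. Among chemokines and receptors 8 of 22 were measured, 0 were called and 1 had an unadjusted p below 0.05 on the lower side. Ccl2, a monocyte chemokine, had 11.98, 12.46 and 11.99 in OA at 8 weeks, but its sham values of 4.18, 8.61 and 10.51 spread widely, and the interaction of 3.69 ± 1.85 had an adjusted p of 0.501. ERK feedback genes had 10 of 15 measured, 7 above 0, 2 with an unadjusted p below 0.05 on the higher side and a median of 0.34. These 2 were Dusp1, a phosphatase of MAP kinases, with 1.51 ± 0.49 (adjusted p = 0.319), and Spry2, an inhibitor of growth factor signalling (adjusted p = 0.324). TGF-beta and BMP signalling had 27 of 37 measured, 1 higher and 4 lower at an unadjusted p below 0.05 and a median of -0.15. WNT signalling had 11 of 25 measured, 0 at an unadjusted p below 0.05 and a median of -0.11.

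The remaining process lists had no called gene. Their counts too stand beside shares of 4.1% higher and 6.78% lower over all genes at an unadjusted p below 0.05. The interferon response had 16 of 24 measured, 2 lower at an unadjusted p below 0.05 and a median of -0.25. The unfolded protein response and secretion had 28 of 29 measured, 1 higher and 4 lower and a median of -0.20. The IGF axis had 11 of 13 measured, 1 higher and 3 lower and a median of -0.36, and lipid handling and complement 16 of 23 measured, 3 higher and 4 lower and a median of -0.30. Heat shock had 12 of 16 measured, 2 higher and 2 lower and a median of 0.17, and the circadian clock 15 of 18 measured, 1 higher and 1 lower and a median of 0.23. Chondrocyte transcription factors had 11 of 17 measured, 0 higher and 2 lower and a median of -0.21. Genes of the superficial zone, the lubricating surface layer, had 10 of 14 measured, 0 in either direction and a median of 0.28. Prg4, Tnxb and Cilp had no probe set with a single symbol, and Gas1 was not above log2 4 in at least 3 arrays.

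**Figure D4:**
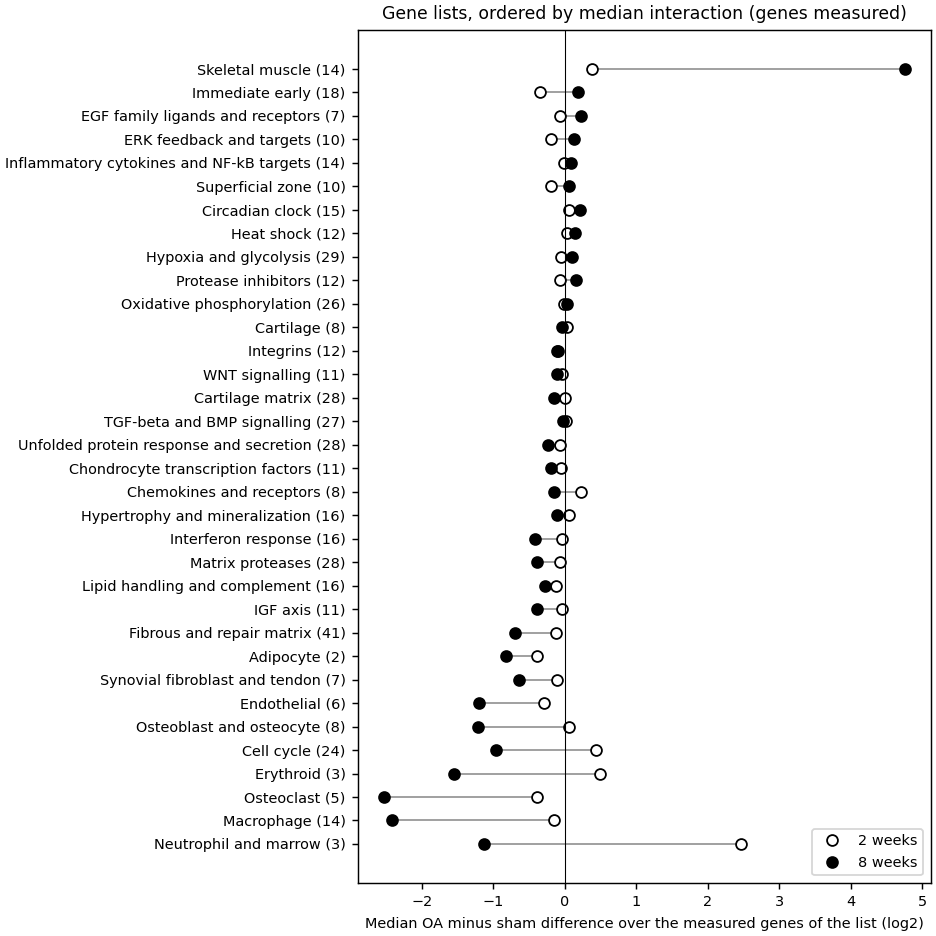
Median OA minus sham difference in log2 over the measured genes of each list at 2 weeks (open circles) and 8 weeks (filled circles), with the number of measured genes in brackets; the line between the circles spans the change. Skeletal muscle moved up from 0.38 to 4.75, macrophage markers moved down from -0.15 to -2.41, and the cell cycle moved from 0.44 to -0.96, while cartilage matrix and oxidative phosphorylation stayed near 0.

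The marker lists of cells other than chondrocytes had median interactions below 0, except skeletal muscle, whose median lay above 0. At an unadjusted p below 0.05, 6.78% of all genes were lower and 4.1% higher. Of 16 macrophage markers 14 were measured, 13 with an interaction below 0, 1 called (Cd68), 7 on the lower and 0 on the higher side at an unadjusted p below 0.05, and the median was -2.23. The mean level of the list ranged from 8.59 to 10.41 in the 6 arrays at 2 weeks, OA and sham overlapping. At 8 weeks the OA arrays read 6.65, 6.79 and 6.71, and the sham arrays read 7.68, 9.90 and 10.35, so that OA at 8 weeks was lowest and sham replicate 1 came next. Csf1r, the receptor for macrophage growth factor, had -1.57 ± 0.38 (adjusted p = 0.177), and Laptm5, a lysosomal membrane protein of blood cells, -2.18 ± 0.45 (adjusted p = 0.116).

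The 5 measured osteoclast markers of 10 all had an unadjusted p below 0.05 on the lower side, where 6.78% of all genes did. Their median was -2.13, and 0 were called. Mmp9, the gelatinase of osteoclasts, had 12.84, 12.53 and 12.56 in OA and 12.95, 13.03 and 13.68 in sham at 2 weeks, and 8.62, 10.33 and 10.59 in OA and 13.12, 13.46 and 13.82 in sham at 8 weeks. OA was the lower group at both times, with a difference of -0.58 at 2 weeks and -3.62 at 8 weeks, an interaction of -3.04 ± 0.63 (adjusted p = 0.116). Ctsk, the collagen-cleaving cathepsin of osteoclasts, had -1.11 ± 0.23 (adjusted p = 0.116), Itgb3 -3.03 ± 0.68 (adjusted p = 0.143) and Acp5, the tartrate-resistant phosphatase, -2.13 ± 0.51 (adjusted p = 0.165). The osteoclast list's mean level was 9.48, 10.64 and 10.82 in OA at 8 weeks, below the 9 other arrays.

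Most bone, vessel and blood cell markers leaned the same way. Of 10 osteoblast and osteocyte markers 8 were measured, all 8 below 0, 5 with an unadjusted p below 0.05 and 0 called, with a median of -1.37. Over all genes 6.78% were lower at that p. Phex, an endopeptidase of osteocytes, had 6.89, 7.01 and 7.43 in OA and 9.73, 9.36 and 9.82 in sham at 8 weeks, against 9.88 to 11.43 at 2 weeks, and an interaction of -2.76 ± 0.54 (adjusted p = 0.106). Endothelial markers had 6 of 9 measured, all 6 below 0, 1 with an unadjusted p below 0.05, and a median of -0.82. Erythroid markers had 3 of 6 measured, 2 lower at an unadjusted p below 0.05 and a median of -2.05, while 1, Slc4a1, lay above 0 at 0.11. The neutrophil and marrow list had 3 of 7 measured and a median of -3.48; its median OA minus sham difference was 2.47 at 2 weeks and -1.13 at 8 weeks, so for this list the 2-week difference was the larger in size. S100a8, a calcium-binding protein of neutrophils, had 10.87, 13.46 and 13.05 in OA and 7.73, 11.26 and 10.99 in sham at 2 weeks, with an interaction of -4.33 ± 2.25 (adjusted p = 0.515). Synovial fibroblast and tendon markers had 7 of 8 measured, 2 above and 5 below 0, 1 lower at an unadjusted p below 0.05 and a median of -0.54. Adipocyte markers had 2 of 6 measured, 1 in each direction.

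Skeletal muscle markers had the largest median interaction of the 34 lists. Of 18 listed 14 were measured, all 14 above 0 with a median of 4.51, 1 had an unadjusted p below 0.05 and 0 were called. Over all genes 45.7% lay above 0, and 4.1% were higher at that p. The mean level was 14.46, 10.93 and 9.24 in OA against 10.06, 4.79 and 6.85 in sham at 8 weeks; the OA arrays were high, but the lowest of them was under the highest sham array. Mybpc2, a myosin-binding protein of fast muscle, had 5.45 ± 2.37 (adjusted p = 0.437) and Ttn, titin, 4.88 ± 2.50 (adjusted p = 0.511). Ppargc1a, the mitochondrial coactivator that muscle expresses strongly, had 9.57, 6.94 and 6.93 in OA and 4.69, 3.40 and 3.48 in sham at 8 weeks, against 3.76 to 4.15 at 2 weeks, and an interaction of 3.77 ± 0.88 (adjusted p = 0.158). A second probe set of Ppargc1a gave an interaction of 0.31 (adjusted p = 0.697), the 8-week OA mean being 6.74 and the sham mean 6.32, so its probe sets disagree. With the mean muscle level as a covariate 12 probe sets were called, 9 of the 22 among them; Tgfa, Itga8, Fez1, Lhfpl3, Enc1 and Cd68 were called, with adjusted p from 0.000688 for Tgfa to 0.0366 for Cd68. The 9 other genes kept their sign and were not called, with adjusted p from 0.0577 for Foxs1 to 0.193 for Cdca7. With the covariate their interactions were 1.48 for Mmp3, 1.24 for Stard13 and -1.58 for Foxs1, larger in size than without it. They were -3.80 for Gfap, -2.93 for Ctsz, -1.88 for Mfap2, -1.82 for Ccdc88c, -1.50 for Srpx and -1.19 for Cdca7, smaller in size than without it. The part of the macrophage, bone, blood and vessel markers in the results was not tested.

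**Figure D5:**
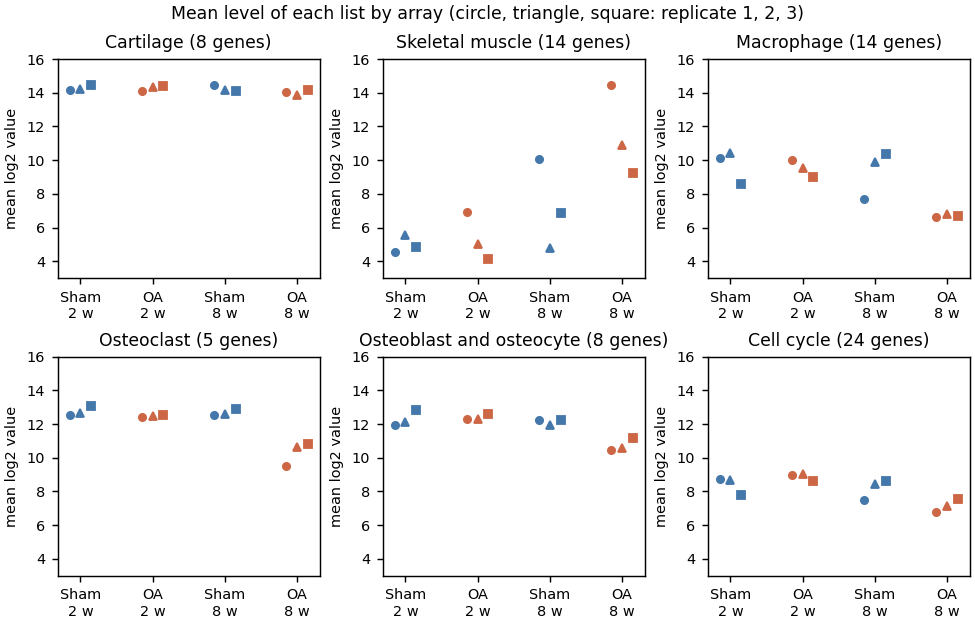
Mean log2 level of 6 gene lists in each of the 12 arrays, blue for sham and orange for OA, with circle, triangle and square for replicates 1, 2 and 3. Cartilage markers lie between 13.90 and 14.47 in every array, whereas muscle markers reach 14.46 in OA 8 weeks replicate 1 and macrophage, osteoclast, osteoblast and cell cycle lists have their lowest array in OA at 8 weeks.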

How the data were processed

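Total RNA of rat knee articular cartilage was labelled with biotin and hybridized to 1-colour Affymetrix arrays, per the labels' protocols. The values are the deposited log2 values, which the authors made with GCRMA per the submitters' processing notes; its version is not given in the sources used here. GCRMA models background from probe sequence, normalizes arrays to a common distribution and summarizes probes, so values near the floor are compressed and a shift shared by most genes would be removed. No further normalization was applied.

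Gene symbols came from the array's annotation, updated by Entrez ID: 20832 probe sets had 1 symbol, 436 several and 9831 none, 57 controls among them. Control probe sets were dropped and 15934 were kept. A mean per group was fitted to all 12 arrays with limma 3.58.1 in R 4.3.3 (lmFit, contrasts.fit, eBayes), and p-values were adjusted by Benjamini-Hochberg over the 15934 probe sets at a threshold of 0.05. The fit was tested on simulated data. Depth has no counterpart on arrays; the 3 arrays a group limit the precision.

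The gene lists (34, with 648 genes, 472 of them measured) and the choice of this interaction were made with earlier results of these data known, and lists are described by counts and medians without a set test. Some lists share members, so their counts are not separate observations. No measured list gene passed the filter through the arrays of a single group. Text names every called gene with a single symbol and some fixed genes. The other genes named cross over or are among the 4 of their list with the smallest p. Not every such gene is named, and for several lists none is.

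Arrays of the same number and time deviated together: the 6 correlations of their deviations from the group means ran from 0.119 to 0.527, whereas over all 18 same-numbered pairs they ran from -0.497 to 0.527. Pairs of unlike number reached 0.142 within a time. Across times they reached 0.640, for sham 2 weeks replicate 3 with sham 8 weeks replicate 1. The labels do not say what the numbers mean. A replicate block within each time was therefore fitted as an alternative, as were other filters, normalizations and variance models, and fits with arrays left out. Promoter sequences are RefSeq's, build GRCr8.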

Additional observations from a re-analysis of the deposited data

Results flagged for a closer look

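The 15 named genes below differed in their OA effect between the times by the interaction test itself. On the higher side the interaction was 2.92 for Tgfa, 4.44 for Itga8, 2.23 for Fez1, 2.21 for Lhfpl3, 1.39 for Mmp3 and 1.12 for Stard13. On the lower side it was -5.94 for Cd68, -4.43 for Gfap, -3.42 for Ctsz, -2.35 for Mfap2, -2.17 for Enc1, -1.97 for Ccdc88c, -1.82 for Srpx, -1.45 for Foxs1 and -1.33 for Cdca7. Single arrays far from their group were not sought with a test, since each group held 3.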

How the results depend on the processing

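Each of the 22 calls kept its sign in every alternative that tested it (19 of 19 at the filter of log2 6), whereas the number of calls moved. The 22 calls (10 higher, 12 lower) became 8 (4 and 4) with no filter on low values, 39 (17 and 22) with added quantile normalization, 36 (16 and 20) with array medians made equal and 130 (56 and 74) with array weights. They became 130 (60 and 70) with both number 1 arrays at 8 weeks left out and 12 (8 and 4) with the muscle marker level as covariate, where the lower share was smaller. Leaving out 1 array at a time gave 7 to 80 calls, 3 to 30 higher and 4 to 53 lower. The filter at log2 6 gave 19 calls and the variance alternatives 22 each.

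The replicate block within each time gave 67 calls (31 and 36) and ended those of Foxs1, Ccdc88c, Mmp3 and Gfap; it ended no other call of the 15 genes. A replicate block over all groups gave 21 calls (8 and 13), 13 of the 22 among them. The cause was not tested.

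Of the 15 genes, Tgfa, Itga8, Fez1, Enc1 and Cd68 were called in 24 of 24 alternatives, Lhfpl3 in 16, Ctsz and Mfap2 in 13, Ccdc88c and Srpx in 12, Gfap, Mmp3 and Stard13 in 11, Foxs1 in 10 of 23 and Cdca7 in 9; the highest adjusted p of any was 0.193. The dimmer probe set of Tgfa turned the sign, at -0.70 ± 0.75. Medians of the lists for adipocytes, cartilage, fibrous matrix, heat shock, the IGF axis, integrins, oxidative phosphorylation, protease inhibitors and skeletal muscle changed sign in at least 1 alternative; for muscle this was the covariate made from the same list (-0.11). With 3 arrays a group, values below log2 4 carry little signal over background.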

Other observations

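Of the 22 called probe sets, the 7 without a single gene symbol in the annotation are not named. Among these 7 the largest interaction above 0 was 3.68 ± 0.52 (adjusted p = 0.0373), and the smallest adjusted p was 0.00319, for an interaction of -3.07 ± 0.26.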
